A study of Mus musculus with 6 samples.

Results

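The enzymes that make serine from a glycolytic intermediate and pass its side-chain carbon to folate were examined in 3T3-L1 cells, a clonal mouse embryo fibroblast line whose preadipocytes can be made to differentiate into adipocytes in a dish. The 10 members are Phgdh, Psat1, Psph, Shmt1, Shmt2, Mthfd1, Mthfd2, Mthfd1l, Aldh1l1 and Aldh1l2. They were chosen by name as a pathway, with earlier results of these data known. All 10 were found among the 54752 genes of the deposited tables. RNA was sequenced from 3 libraries labelled 3T3-L1 adipocyte and 3 labelled 3T3-L1 preadipocyte, and both groups carry the labels C57BL/6J for strain, Embryo for tissue and none for treatment. The states are given by the titles and the cell type label, while the source name reads Adipocyte for all 6 libraries. The same medium text stands beside every library (bovine calf serum medium written as BCS, the letters DMI, and FBS), so the labels do not say what each state received, and the day of harvest is not given in the sources used here. The labels do not say whether the 3 libraries of a state came from separate cultures, so the p-values below measure the spread between these libraries, which may be technical.

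Serine synthesis leaves glycolysis at 3-phosphoglycerate and takes 3 enzymes in a row. Phgdh oxidises 3-phosphoglycerate, Psat1 adds an amino group from glutamate, and Psph removes the phosphate. Serine hydroxymethyltransferases then split serine into glycine and a carbon unit that tetrahydrofolate carries, in the cytosol (Shmt1) and in mitochondria (Shmt2). In mitochondria, Mthfd2 oxidises the folate-bound carbon and Mthfd1l releases it as formate. Mthfd1 does the work of both in the cytosol and takes formate up again for purine and thymidylate synthesis. Aldh1l1 in the cytosol and Aldh1l2 in mitochondria burn the carbon of 10-formyltetrahydrofolate to CO2 and make NADPH. In fat cells, glycolysis also feeds glycerol phosphate and fatty acid synthesis, so serine synthesis draws on a shared intermediate.

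The labels were checked against marker genes on the TPM scale, a level corrected for gene length and scaled to a fixed total in each library. Adipoq, the adiponectin gene, was at 4586 to 6086 TPM in adipocyte and 0.06 to 0.35 TPM in preadipocyte libraries. Pparg, a main regulator of fat cell formation, was at 439.3 to 454.3 TPM in adipocyte and 36.7 to 41.6 TPM in preadipocyte libraries. Dlk1, a preadipocyte gene, was at 113.0 to 156.5 TPM in adipocyte and 3750 to 4789 TPM in preadipocyte libraries. Summed over 8 adipocyte markers, TPM ran from 25103 to 30197 in adipocyte libraries and from 91.5 to 96.7 in preadipocyte libraries. For 8 preadipocyte markers the sums were 176.1 to 223.9 in adipocyte and 4694 to 5680 in preadipocyte libraries. Markers of macrophages summed to 2.20 to 4.12 TPM in adipocyte and 6.29 to 8.02 TPM in preadipocyte libraries, and 5 of their 7 genes, Ptprc and Adgre1 included, were under 1 TPM in all 6 libraries, Cd68 and Cd14 being the exceptions. Endothelial markers summed to 0.23 to 0.75 TPM in adipocyte and 0.64 to 1.24 TPM in preadipocyte libraries. Of 6 muscle markers, Myod1, Myog, Myh3 and Ckm were listed at 0 in all 6 libraries, while Des summed with Acta1 to 49.5 to 57.0 TPM in adipocyte and 1.40 to 2.05 TPM in preadipocyte libraries. The 5 brown fat markers summed to 20.5 to 24.1 TPM in adipocyte and 9.84 to 11.5 TPM in preadipocyte libraries, nearly all of it from Ppargc1a and Cidea. The part of other cell types in the results was not tested. Each library held between 22496486 and 26314076 expected counts.

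Of the 10 enzymes, 6 were higher in adipocytes (Phgdh, Psat1, Psph, Mthfd1, Mthfd2 and Aldh1l1), 3 were lower (Shmt1, Mthfd1l and Aldh1l2) and Shmt2 did not pass. Calls are from edgeR's quasi-likelihood test on all 14726 genes with enough counts, with Benjamini-Hochberg adjusted p under 0.05. Among all tested genes, 35.7% were called higher and 37.9% lower, so calls in either direction are common in this comparison. With total counts in place of TMM factors, 5 enzymes were higher and 3 lower, beside 26.6% and 50.8% of all tested genes. With limma on log2(TPM + 1), 5 were higher and 4 lower, beside 22.2% and 56.6%. Upper-quartile factors gave 6 higher and 3 lower, beside 31.7% and 43.1%, and DESeq2 gave 6 and 3, beside 36.8% and 35.1%. The replicate block gave 7 higher and 3 lower, beside 39.1% and 42.2%, and fitting without the low-count filter gave 7 and 3, beside 22.7% and 21.4%. The median log2 fold change was 1.11 over the 10 enzymes and -0.06 over all tested genes. The library values of the groups did not overlap for 9 of the 10 enzymes, and for 76.5% of all tested genes. In bulk RNA, fewer cells of a type and less RNA per cell cannot be told apart.

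The start regions of 5 members are shown so that Phgdh, Psat1, Psph and Mthfd2, which were higher by similar factors, can be read beside Shmt2. Shmt2 is the enzyme whose log2 fold change was smallest in absolute value. Each line holds the 120 bases before the RefSeq start on the gene's own strand (GRCm38.p6), in lower case, with each CCAAT pentamer, or ATTGG where it lies on the other strand, in capitals. The regions are chr3:98339970-98340089 for Phgdh, chr19:15925060-15925179 for Psat1 (the more upstream of its 2 RefSeq starts), chr5:129787254-129787373 for Psph, chr6:83317605-83317724 for Mthfd2 and chr10:127522445-127522564 for Shmt2, all on the minus strand. The GENCODE M21 gene models begin farther upstream, at 15947337 for Psat1, 83325908 for Mthfd2, 129787449 for Psph and 98339990 for Phgdh, but not for Shmt2. The printed stretches of Psat1, Psph and Mthfd2 thus lie inside those gene models.
Phgdh: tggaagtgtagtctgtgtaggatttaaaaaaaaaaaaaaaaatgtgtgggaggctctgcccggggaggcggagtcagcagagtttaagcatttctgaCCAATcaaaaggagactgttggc
Psat1: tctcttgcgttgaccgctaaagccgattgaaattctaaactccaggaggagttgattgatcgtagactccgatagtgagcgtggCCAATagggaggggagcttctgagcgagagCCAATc
Psph: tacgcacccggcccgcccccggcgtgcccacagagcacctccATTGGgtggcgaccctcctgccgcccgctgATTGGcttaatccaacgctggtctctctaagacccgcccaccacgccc
Mthfd2: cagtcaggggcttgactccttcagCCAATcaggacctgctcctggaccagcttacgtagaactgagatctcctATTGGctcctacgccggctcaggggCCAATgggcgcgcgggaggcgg
Shmt2: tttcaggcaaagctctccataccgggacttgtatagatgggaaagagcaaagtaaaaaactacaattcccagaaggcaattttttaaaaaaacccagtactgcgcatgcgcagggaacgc

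CCAAT is the core read by the factor NF-Y and is a frequent promoter element. The pentamer occurs once in the printed Phgdh region, at bases -23 to -19 counted back from the start, and a second copy lies at -193 to -189. The printed stretch holds 2 copies for Psat1, 2 for Psph, 3 for Mthfd2 and 0 for Shmt2. Windows of 300 bases (250 before to 50 after the start) were searched on both strands. In them, 7 of the 9 member genes with such windows held CCAAT, among them Shmt1, which was lower in adipocytes. Counted by window, CCAAT was in 7 of the 10 member windows. It was also present in 37.4% of all 32851 windows, and in 38.3% of the 13184 windows of tested genes. The core TGATGNAA of the element that the stress factor ATF4 shares with C/EBP proteins was found in 0 of the 9 genes' windows on either strand, against 3.97% of all windows and 2.37% of those of tested genes. A motif this rare is absent from most sets of so few windows, so the 0 tells little about these genes. The known ATF4 target Asns has TGATGNAA at -23 to -16. The known ATF4 targets Asns, Trib3 and Chac1, all called higher in adipocytes, held CCAAT 0, 0 and 3 times in their windows. CCAAT was chosen after the windows had been read, and these matches describe letters in a window only.

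Serine synthesis genes were higher in adipocytes in all 3 cases, by 3.31-fold to 4.20-fold in mean CPM. Phgdh (ENSMUSG00000053398.11, chromosome 3, 98313170 to 98339990, GRCm38, minus strand) measured 594.8, 454.3 and 413.2 CPM in adipocyte libraries 1 to 3, against 136.3, 103.2 and 108.8 CPM in preadipocyte libraries 1 to 3. CPM is the count of a gene relative to the library total after TMM scaling, a factor that corrects for differences in library make-up, and it is not corrected for gene length. Every adipocyte library lay above every preadipocyte library, and the library numbered 1 was the highest of its group on both sides. The log2 fold change was 2.07 (edgeR adjusted p = 3.46e-06, SE 0.16), a 4.20-fold difference of means. Taken by library number, the log2 ratios of CPM were 2.13, 2.14 and 1.93.

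Psat1 (ENSMUSG00000024640.9, chromosome 19, 15904678 to 15947337, minus strand) measured 473.7, 469.6 and 497.2 CPM in adipocyte libraries, against 115.8, 114.9 and 118.9 CPM in preadipocyte libraries. These groups stood far apart with little scatter inside either, and no library numbered 1 stood out. Psat1 rose by 2.04 on the log2 scale (edgeR adjusted p = 2.46e-08, SE 0.072). Psph (ENSMUSG00000029446.14, chromosome 5, 129765558 to 129787449, minus strand), the last step, measured 52.9, 48.6 and 48.8 CPM in adipocyte libraries, against 15.8, 13.8 and 15.8 CPM in preadipocyte libraries. Psph was much lower than the other two enzymes of the route, also per length, and its groups did not overlap. It rose by 1.73 (edgeR adjusted p = 2.34e-07, SE 0.089). The summed TPM of these 3 genes was 743.2, 640.7 and 648.2 in adipocyte libraries, against 245.4, 225.6 and 233.5 in preadipocyte libraries.

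**Figure D1:**
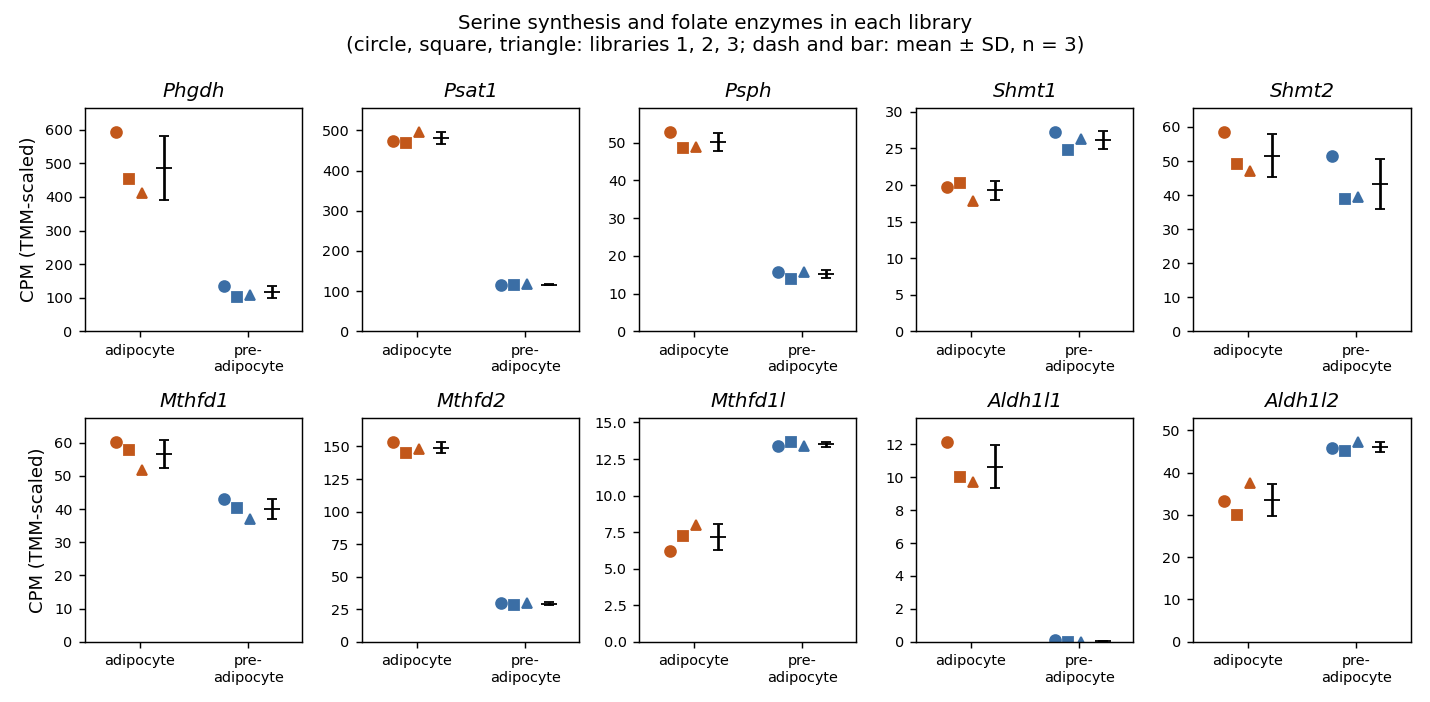
Level of each of the 10 enzymes in TMM-scaled CPM (vertical axes, each from 0) in 3 adipocyte libraries (orange) and 3 preadipocyte libraries (blue), with symbols for library numbers and dashes with bars for mean ± SD (n = 3). Phgdh, Psat1, Psph and Mthfd2 stand 3.31-fold to 5.08-fold higher in adipocytes, Aldh1l1 is near 0 in preadipocytes, and the 2 groups overlap for Shmt2.

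Part of the Phgdh sequence is present in other annotated genes. In GENCODE M21, 16 genes in the tables hold at least 5% of the 31-base words of Phgdh transcripts, and the closest, Gm7901, holds 44.8%. They are called copies here. The copies together took 1664, 1226 and 1185 expected counts in adipocyte libraries, against 460.1, 263.2 and 359.1 in preadipocyte libraries. That is 10.8%, 11.2% and 11.04% of the counts of Phgdh and its copies in adipocyte libraries, and 11.7%, 9.15% and 10.7% in preadipocyte libraries. The shares overlapped between the states. With the copies added, the log2 ratio of mean CPM was 2.08, against 2.07 for Phgdh alone. Whether the copies are transcribed was not tested. Psph overlaps Cct6a on the opposite strand and shares 9.45% of its 31-base words with it. Cct6a had 3674, 4112 and 4165 expected counts in adipocyte libraries, against 3313, 3439 and 3660 in preadipocyte libraries. The strandedness of the libraries is not given in the sources used here, and the part of shared reads in the Psph values was not tested. Shmt1 overlaps Smcr8 on the opposite strand and shares 3.90% of its 31-base words with it, and the part of those reads was not tested.

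Of the 2 serine hydroxymethyltransferases, Shmt1 fell and Shmt2 did not pass. Shmt1 (ENSMUSG00000020534.14, chromosome 11, 60788104 to 60811718, minus strand), the cytosolic enzyme, measured 19.7, 20.3 and 17.8 CPM in adipocyte libraries, against 27.3, 24.8 and 26.2 CPM in preadipocyte libraries. All adipocyte values lay below all preadipocyte values, and Shmt1 fell by 0.44 on the log2 scale (edgeR adjusted p = 0.00179, SE 0.089). Shmt2 (ENSMUSG00000025403.5, chromosome 10, 127517123 to 127522444, minus strand), its mitochondrial counterpart, measured 58.7, 49.1 and 46.9 CPM in adipocyte libraries, against 51.6, 38.8 and 39.4 CPM in preadipocyte libraries. The groups overlapped, because preadipocyte library 1 lay above adipocyte libraries 2 and 3. The log2 fold change was 0.25 (edgeR adjusted p = 0.117, SE 0.13).

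The direction for Shmt2 depended on the scale. Within a library number the adipocyte value was higher each time, with log2 ratios of 0.18, 0.34 and 0.25. The labels do not pair the libraries by number, and this pairing was inferred from the same data. With the replicate number as a block the call was higher (log2 fold change 0.26, edgeR adjusted p = 0.00102). It was also higher when preadipocyte library 1 (0.40, edgeR adjusted p = 0.0133) or adipocyte library 3 (0.38, edgeR adjusted p = 0.0474) was left out. On log2(TPM + 1) with limma it was lower (-0.35, adjusted p = 0.0174), since Shmt2 measured 37.7, 31.9 and 30.6 TPM in adipocyte libraries, against 48.1, 40.3 and 40.2 TPM in preadipocyte libraries. That scale moved the median of all tested genes by -0.48, and total counts moved it by -0.33, where Shmt2 was at -0.07 (edgeR adjusted p = 0.608). No single direction can be given for Shmt2 across these scales.

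Among the enzymes that carry the folate-bound carbon onward, Mthfd2 rose, Mthfd1l fell and Mthfd1 rose by less. Mthfd2 (ENSMUSG00000005667.8, chromosome 6, 83305691 to 83325908, minus strand), the mitochondrial dehydrogenase and cyclohydrolase that is abundant in embryonic and dividing cells, measured 153.4, 144.9 and 148.3 CPM in adipocyte libraries, against 30.02, 27.93 and 29.91 CPM in preadipocyte libraries. Scatter within each state was small beside the gap between them. The log2 fold change was 2.35 (edgeR adjusted p = 1.29e-08, SE 0.073), the largest of the 9 enzymes with counts in every library. Mthfd2l, a mitochondrial paralogue with the same type of activity, averaged 18.9 ± 1.96 CPM in adipocytes and 21.3 ± 1.43 CPM in preadipocytes (SD, n = 3), and did not pass (log2 fold change -0.17, edgeR adjusted p = 0.164). It was called lower with upper-quartile factors (-0.31, edgeR adjusted p = 0.0262) and with total counts (-0.50, edgeR adjusted p = 0.00287), but not with limma on log2(TPM + 1) (-0.30, adjusted p = 0.0581).

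Mthfd1l (ENSMUSG00000040675.17, chromosome 10, 3973118 to 4167081, plus strand), which acts after Mthfd2 and releases formate from mitochondria, measured 6.23, 7.24 and 8.004 CPM in adipocyte libraries, against 13.4, 13.7 and 13.4 CPM in preadipocyte libraries. Its preadipocyte values were nearly identical, and each adipocyte value was well below them. Mthfd1l fell by 0.91 on the log2 scale (edgeR adjusted p = 0.000115, SE 0.12). Consecutive mitochondrial steps thus moved in opposite directions at the RNA level. Mthfd1 (ENSMUSG00000021048.7, chromosome 12, 76255298 to 76319803, plus strand), the cytosolic enzyme that joins these activities in one protein, measured 60.2, 57.8 and 51.9 CPM in adipocyte libraries, against 43.0, 40.2 and 37.0 CPM in preadipocyte libraries. These groups did not overlap, and the log2 fold change was 0.50 (edgeR adjusted p = 0.000975, SE 0.091). The call was lost with total counts (0.17, edgeR adjusted p = 0.0928) and the sign turned with limma on log2(TPM + 1) (-0.10, adjusted p = 0.293).

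**Figure D2:**
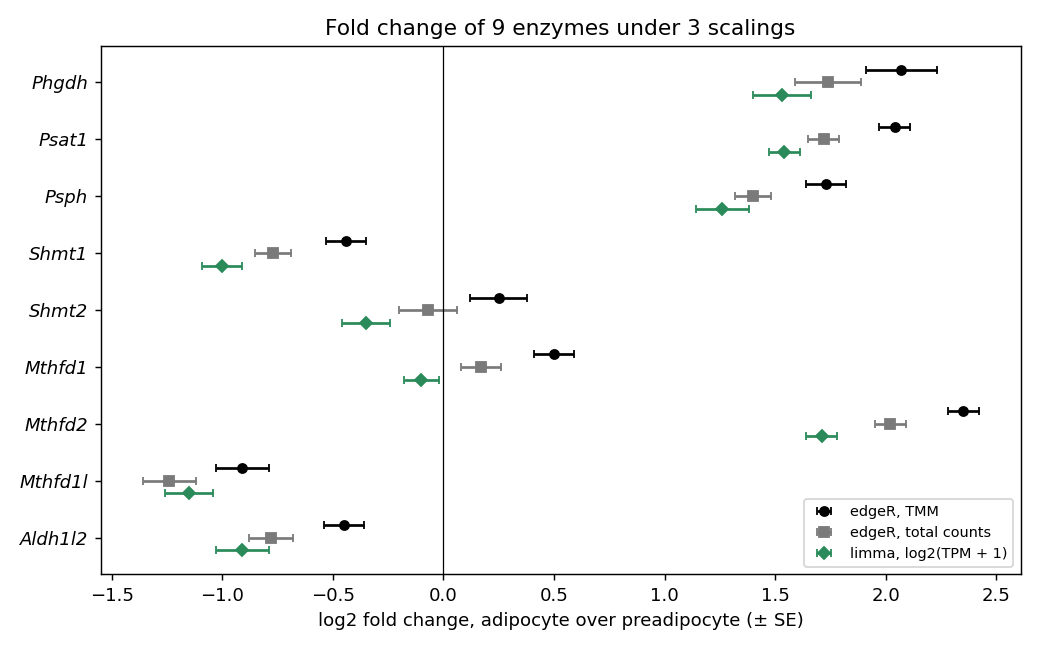
Log2 fold change, adipocyte over preadipocyte (horizontal axis, bars ± SE), of 9 enzymes under 3 scalings, with Aldh1l1 left out because it had 2 counts in preadipocytes. Phgdh, Psat1, Psph and Mthfd2 lie right of 0 and Shmt1, Mthfd1l and Aldh1l2 left of 0 under all 3, while Shmt2 (0.25, -0.07 and -0.35) and Mthfd1 (0.50, 0.17 and -0.10) change sign.

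Of the 10-formyltetrahydrofolate dehydrogenases, the cytosolic one appeared in adipocytes and the mitochondrial one fell. Aldh1l1 (ENSMUSG00000030088.15, chromosome 6, 90486427 to 90600203, plus strand) had 281, 215 and 225 expected counts in adipocyte libraries, against 2, 0 and 0 in preadipocyte libraries. In adipocytes this came to 12.1, 10.04 and 9.73 CPM, so the gene was readily counted in each adipocyte library and near absent from each preadipocyte library. The ratio of summed counts after scaling was 417.8 (95% exact Poisson interval 115.7 to 3450, for counting error only, edgeR adjusted p = 1.56e-07). Aldh1l2 (ENSMUSG00000020256.14, chromosome 10, 83487450 to 83534140, minus strand) measured 33.2, 29.99 and 37.6 CPM in adipocyte libraries, against 45.8, 45.0 and 47.2 CPM in preadipocyte libraries. The states did not overlap, and Aldh1l2 fell by 0.45 on the log2 scale (edgeR adjusted p = 0.00213, SE 0.095). It shares 13.5% of its 31-base words with D10Wsu102e on the opposite strand, which had 3028, 3558 and 4193 expected counts in adipocyte libraries, against 3474, 4428 and 4504 in preadipocyte libraries. The part of shared reads in the Aldh1l2 values was not tested.

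Ratios of 2 enzymes within a library do not depend on the scaling between libraries. The TPM ratio of Shmt2 to Shmt1 was 2.80, 2.46 and 2.72 in adipocyte libraries, against 1.90, 1.57 and 1.46 in preadipocyte libraries. The mitochondrial form was the more abundant of the pair in all 6 libraries, and more so in each adipocyte library. The ratio of Mthfd2 to Mthfd1 was 4.06, 4.09 and 4.35 in adipocyte libraries, against 1.04, 1.096 and 1.35 in preadipocyte libraries. The ratio of Mthfd2 to Mthfd2l was 4.86, 3.58 and 4.44 in adipocyte libraries, against 1.09, 1.03 and 0.967 in preadipocyte libraries, so the paralogues were about level in preadipocytes. The ratio of Mthfd1l to Mthfd1 went the other way, at 0.0917, 0.110 and 0.127 in adipocyte libraries, against 0.247, 0.271 and 0.300 in preadipocyte libraries. These 4 ratios did not overlap between the states (each exact permutation p = 0.1, two-sided, which is the smallest that 3 against 3 libraries allow, and 0.125 adjusted over the 5 ratios tested).

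The Phgdh to Psph ratio, between the first and last step of serine synthesis, was 7.11, 7.92 and 6.29 in adipocyte libraries, against 6.82, 5.21 and 6.01 in preadipocyte libraries. Here the states overlapped (exact permutation p = 0.2, two-sided), but the ratio was higher in adipocytes within each of the 3 library numbers. With the libraries paired by number, the exact sign-flip permutation p was 0.25 (two-sided) for this ratio and for each of the other 4, the smallest that 3 pairs allow. The ratio of Aldh1l2 to Aldh1l1 was 1.33, 1.43 and 2.14 in adipocyte libraries, against 106 in preadipocyte library 1, and it could not be formed in preadipocyte libraries 2 and 3, where Aldh1l1 is listed at 0. It was therefore not tested.

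**Figure D3:**
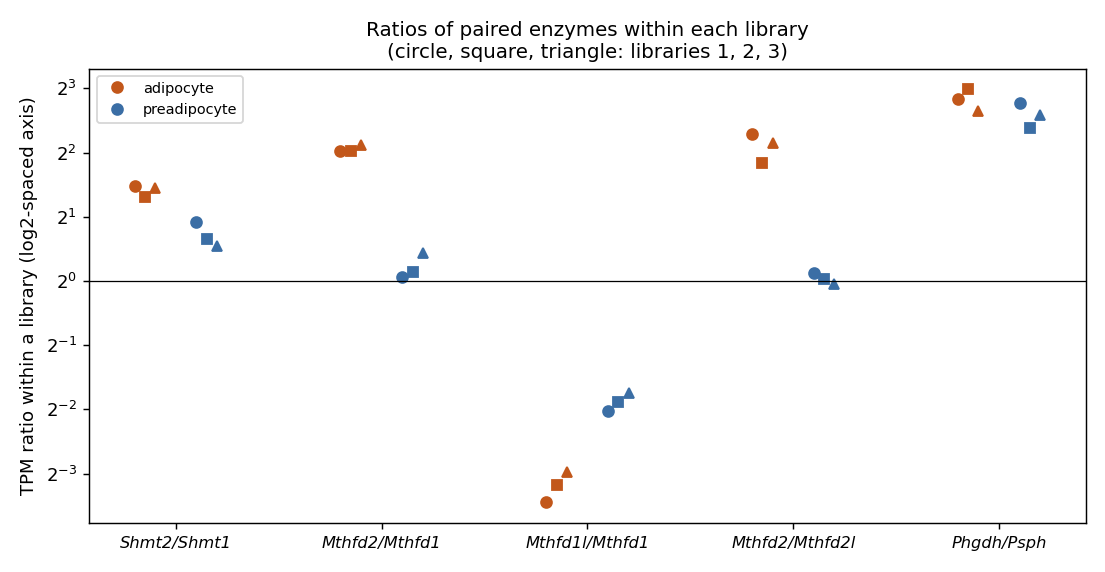
TPM ratio of 2 enzymes within each library (vertical axis, spaced by factors of 2) for 5 pairs, in 3 adipocyte (orange) and 3 preadipocyte (blue) libraries. Adipocyte points lie above preadipocyte points for Shmt2/Shmt1, Mthfd2/Mthfd1 and Mthfd2/Mthfd2l and below them for Mthfd1l/Mthfd1, and the states overlap for Phgdh/Psph.

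Per length, Phgdh was the most abundant of the 10 transcripts in both states, at 360.1 ± 61.2 TPM in adipocytes and 123.1 ± 13.8 TPM in preadipocytes (SD, n = 3). Psat1 came next in both, at 266.3 ± 16.6 TPM in adipocytes and 91.2 ± 4.55 TPM in preadipocytes (SD, n = 3). Mthfd2 held the third place in adipocytes with 101.7 ± 2.49 TPM and the fourth in preadipocytes with 30.4 ± 1.94 TPM (SD, n = 3), behind Shmt2. In adipocytes the order went on with Psph, Shmt2, Mthfd1, Shmt1, Aldh1l2, Aldh1l1 and Mthfd1l, and the library ranges of neighbours did not overlap. In preadipocytes it went on after Mthfd2 with Mthfd1, Shmt1, Psph, Aldh1l2, Mthfd1l and Aldh1l1, where Mthfd1 (24.1 to 27.5 TPM) and Shmt1 (25.4 to 27.5 TPM) overlapped. The 3 serine synthesis genes and Mthfd2 were thus the leading transcripts of the set in adipocytes.

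Summed by compartment, the 4 mitochondrial folate enzymes (Shmt2, Mthfd2, Mthfd1l and Aldh1l2) came to 149.7, 140.6 and 146.7 TPM in adipocyte libraries, against 98.4, 92.9 and 96.2 TPM in preadipocyte libraries. On this scale Mthfd2 accounts for the higher sum, since the TPM of Shmt2, Mthfd1l and Aldh1l2 was lower in every adipocyte library, but in CPM Shmt2 was higher within each library number. The 3 cytosolic ones (Shmt1, Mthfd1 and Aldh1l1) came to 44.2, 42.1 and 39.4 TPM in adipocyte libraries, against 53.0, 52.8 and 51.5 TPM in preadipocyte libraries. That direction turned in TMM-scaled CPM, which differs from TPM in its scaling and in not being corrected for gene length. There the same 3 genes summed to 92.0, 88.2 and 79.4 CPM in adipocyte libraries, against 70.4, 65.02 and 63.2 CPM in preadipocyte libraries. No direction is therefore given for the cytosolic sum. The mitochondrial sum was higher in adipocytes in CPM as well, at 251.5, 231.3 and 240.8 CPM in adipocyte libraries, against 140.9, 125.3 and 129.9 CPM in preadipocyte libraries.

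The supply of folate and serine around these enzymes was followed in companion gene lists. The counts of each list below stand beside 35.7% higher and 37.9% lower among all tested genes. With total counts these shares were 26.6% and 50.8%, and with limma on log2(TPM + 1) they were 22.2% and 56.6%. Counts near these shares do not set a list apart from other genes. Folate uptake and retention genes were higher in 3 and lower in 2 of 5 tested members of 7 (median log2 fold change 0.84). Slc19a1, the reduced folate carrier of the cell surface, averaged 103.9 ± 16.8 CPM in adipocytes and 11.5 ± 1.40 CPM in preadipocytes (SD, n = 3), and rose by 3.18 (edgeR adjusted p = 1.04e-07, SE 0.14). Slc25a32, the mitochondrial folate transporter, rose by 0.84 (edgeR adjusted p = 0.000283, SE 0.13). Fpgs, which adds the glutamate tail that keeps folate in the cell, fell by 0.56 on the log2 scale (edgeR adjusted p = 0.0112, SE 0.16). Folr1 and Folr2 had too few counts to be tested.

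Of the other enzymes that use folate, 4 were higher and 3 lower among 10 tested members of 11 (median log2 fold change -0.23). With total counts alone it was 2 higher and 6 lower, and with limma on log2(TPM + 1) 1 higher and 6 lower. Mtfmt, which formylates the mitochondrial initiator tRNA, rose by 1.05 (edgeR adjusted p = 8.35e-06, SE 0.092). Tyms, thymidylate synthase, averaged 9.70 ± 0.78 CPM in adipocytes and 19.5 ± 1.24 CPM in preadipocytes (SD, n = 3), and fell by 1.01 on the log2 scale (edgeR adjusted p = 2.45e-05, SE 0.10). The most abundant was Atic, of purine synthesis, at a log2 fold change of 0.22 (edgeR adjusted p = 0.0159, SE 0.067), a call lost with upper-quartile factors and total counts and turned to lower with limma on log2(TPM + 1) (-0.31, adjusted p = 0.00328).

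Genes of glycine cleavage and methyl-group entry were higher in 4 and lower in 2 of 7 tested members of 10 (median log2 fold change 0.50). Dld, a subunit shared with pyruvate dehydrogenase and related complexes, averaged 634.6 ± 60.1 CPM in adipocytes and 84.2 ± 5.53 CPM in preadipocytes (SD, n = 3). Gcsh, the hydrogen carrier protein of glycine cleavage, averaged 158.0 ± 7.13 CPM in adipocytes and 30.2 ± 1.26 CPM in preadipocytes (SD, n = 3, edgeR adjusted p = 1.47e-08). Gldc, the enzyme that starts the cleavage, was scarce, at 0.712 ± 0.207 CPM in adipocytes and 1.52 ± 0.20 CPM in preadipocytes (SD, n = 3), and fell by 1.09 on the log2 scale (edgeR adjusted p = 0.00521, SE 0.27). Amt, the aminomethyltransferase of the system, averaged 3.58 ± 0.61 CPM in adipocytes and 4.99 ± 0.16 CPM in preadipocytes (SD, n = 3), and was lower as well (log2 fold change -0.48, edgeR adjusted p = 0.021). Of the 4 parts of the glycine cleavage system, Gcsh and Dld were thus higher and Gldc and Amt lower. The count of lower genes was 1 with DESeq2.

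Methionine cycle and transsulfuration genes were higher in 4 and lower in 1 of 7 tested members of 11 (median log2 fold change 1.117, that of Mat2a). Mat2a, which makes S-adenosylmethionine, rose by 1.117 (edgeR adjusted p = 6.98e-06, SE 0.096), and the largest rise was of Ahcyl2, at 2.35 (SE 0.091), a relative of the homocysteine-releasing enzyme Ahcy. Cth, the second transsulfuration enzyme toward cysteine, rose by 2.26 (edgeR adjusted p = 8.31e-08, SE 0.098), while Ahcyl1 fell by 0.27 on the log2 scale (edgeR adjusted p = 0.0155, SE 0.081). Cbs, the first transsulfuration enzyme, was too scarce to be tested. It had 8, 4 and 2 expected counts in adipocyte libraries and 0 in each preadipocyte library. Serine use and breakdown genes were higher in 5 and lower in 2 of 8 tested members of 12 (median 0.40), and 2 were higher with limma on log2(TPM + 1) or with total counts. Srr, serine racemase, rose by 0.88 (edgeR adjusted p = 1.49e-05, SE 0.084), and Serinc5, of a membrane protein family, fell by 1.96 on the log2 scale (edgeR adjusted p = 9.12e-08, SE 0.086). The most abundant of them was Serinc1 (0.38, SE 0.086, edgeR adjusted p = 0.00337), whose call was lost with total counts (0.06, edgeR adjusted p = 0.593) and whose sign turned with limma on log2(TPM + 1) (-0.15, adjusted p = 0.205).

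Serine and glycine transport genes were higher in 4 and lower in 5 of 10 tested members of 11 (median log2 fold change -0.29), and 2 were higher with limma on log2(TPM + 1) or with total counts. Sfxn1, a mitochondrial serine transporter, averaged 230.1 ± 8.77 CPM in adipocytes and 31.95 ± 2.69 CPM in preadipocytes (SD, n = 3), and rose by 2.85 (edgeR adjusted p = 1.25e-08, SE 0.088). Its relative Sfxn3 moved the other way, at 13.2 ± 1.62 CPM in adipocytes and 143.1 ± 6.93 CPM in preadipocytes (SD, n = 3, edgeR adjusted p = 1.19e-08). The most abundant, Slc1a5, a carrier of neutral amino acids at the cell surface, rose by 1.78 (edgeR adjusted p = 1.52e-07, SE 0.085). The amino acid carrier gene Slc38a1 fell by 4.25 on the log2 scale (edgeR adjusted p = 4.47e-06, SE 0.34) at levels under 3 CPM.

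ATF4 is a stress-responsive transcription factor known to drive serine synthesis genes and Mthfd2. All 12 tested genes of a list of Atf4 and some of its known targets were higher in adipocytes (median log2 fold change 1.51), or 10 with limma on log2(TPM + 1), without Sesn2 and Ddit4. That count depends on which targets were listed. Other known targets were lower, namely the member Aldh1l2 and the amino acid carrier genes Slc7a11 (log2 fold change -1.99, edgeR adjusted p = 1.8e-05), Slc1a4 (-0.63, edgeR adjusted p = 7.4e-05) and Slc38a2 (-0.34, edgeR adjusted p = 0.0292). Atf4 averaged 283.0 ± 8.25 CPM in adipocytes and 136.1 ± 2.86 CPM in preadipocytes (SD, n = 3), and rose by 1.06 (edgeR adjusted p = 1.14e-06, SE 0.069). The most abundant member, Atf5, a related factor, rose by 1.37 (SE 0.16). The largest rise was of Trib3, a pseudokinase gene, at 4.51 (SE 0.13). Asns, asparagine synthetase, rose by 2.26 (edgeR adjusted p = 1.86e-08, SE 0.075). The part of ATF4 in the enzyme values was not tested.

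All 18 cell cycle genes were lower in adipocytes, with a median log2 fold change of -2.13. Their summed TPM ran from 93.1 to 96.6 in adipocyte and from 365.2 to 386.6 in preadipocyte libraries. Mki67, a marker of dividing cells, fell by 3.68 on the log2 scale (edgeR adjusted p = 5.96e-08, SE 0.15), and Pcna, the clamp of DNA replication and the most abundant of the list, fell by 0.99 (edgeR adjusted p = 2.11e-06, SE 0.071). Phgdh, Psat1, Psph, Mthfd1, Mthfd2 and Aldh1l1 were thus called higher while these genes fell. Shmt1, Mthfd1l and Aldh1l2 were called lower too, as was Tyms, which is not a member. The part of cell division in the enzyme values was not tested.

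**Figure D4:**
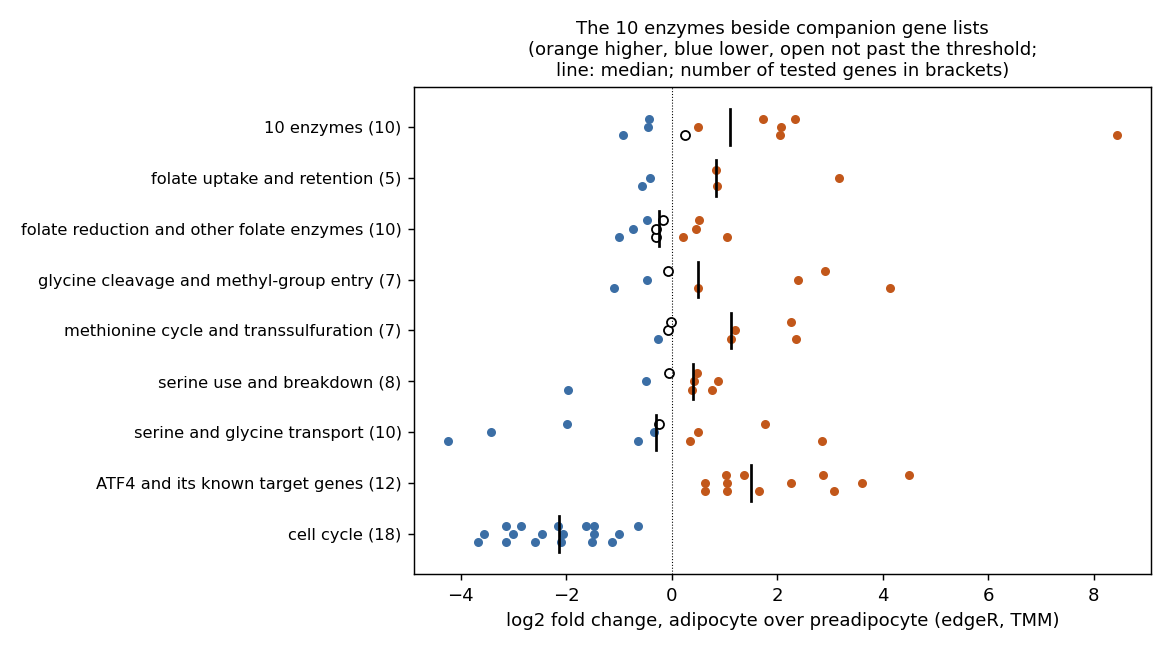
Log2 fold change, adipocyte over preadipocyte (horizontal axis), of each tested gene of 9 lists, coloured by its edgeR call, with the list median as a line. The 10 enzymes spread to both sides of 0 around a median of 1.11, the 12 genes of the ATF4 list lie right of 0 and the 18 cell cycle genes left of 0.

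Genes with the profile most like that of Phgdh over the 6 libraries were Akr7a5, Cox6b1 and Tysnd1, at root mean square distances of 0.026, 0.031 and 0.041 on log2(CPM + 0.5) centred on each gene's mean. With 2 states, such likeness reflects mainly the size of the difference between them.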

How the data were processed

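RNA-seq gene tables of 3 adipocyte and 3 preadipocyte libraries of 3T3-L1 cells were used, grouped by title. Per the file headers, the authors deposited expected counts (RSEM estimates, in which a read that fits more than one gene is divided among them, not scaled between libraries), TPM (scaled within each library) and an effective length for each gene. The submitters' processing notes name Bowtie, Bowtie2, DESeq2 and RSEM and the builds mm10 and GRCm38, without saying which step each served. Identifiers without version were matched to GENCODE M21 on GRCm38 (54723 of 54752).

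Expected counts were rounded, filtered with filterByExpr and tested with the quasi-likelihood F-test of edgeR 4.0.16 (R 4.3.3) with TMM factors (0.88 to 0.90 in adipocyte and 1.11 to 1.13 in preadipocyte libraries), the group as only term and Benjamini-Hochberg adjustment over all 14726 genes at 0.05. The code was tested on simulated data. No 2 libraries were identical. Levels between genes were compared as TPM. Sequences are from RefSeq (GRCm38.p6). Alternatives were other scalings, no low-count filter, DESeq2 1.42.0, limma 3.58.1 (voom, and log2(TPM + 1)), an effective length offset, a replicate block and leaving out each library.

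Deviations of log2(CPM + 1) from group means correlated at 0.659, 0.301 and 0.265 for libraries numbered 1, 2 and 3, all over 0.1, so the numbers were taken to pair the libraries, although adipocyte library 3 correlated more with preadipocyte library 2 (0.446). Adipocyte library 2 correlated at 0.164 with preadipocyte library 3. These values do not settle how libraries 2 and 3 pair. The pairing used comes from the data, as the labels do not state one. It entered the replicate block, the paired ratios and the values given by library number, while the main edgeR test is unpaired.

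The members and lists were chosen with earlier results of these data known. Each list is illustrated by its most abundant gene and by its largest called rise and fall, where the higher group averaged 1 CPM or more. Atf4, Asns, Gcsh, Cth, Cbs, Slc25a32, Sfxn3, Amt, Sesn2, Ddit4, Slc7a11, Slc1a4 and Slc38a2 were added after their values were seen. The genes most like Mthfd2 in profile are not reported here.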

Additional observations from a re-analysis of the deposited data

How the results depend on the processing

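Phgdh, Psat1, Psph, Mthfd2 and Aldh1l1 were higher and Shmt1, Mthfd1l and Aldh1l2 lower, past the threshold, under each alternative run. Across them the log2 fold change was 1.53 to 2.24 for Phgdh, 1.54 to 2.11 for Psat1, 1.26 to 1.82 for Psph, 1.71 to 2.41 for Mthfd2, -1.0 to -0.33 for Shmt1, -1.24 to -0.81 for Mthfd1l and -0.91 to -0.34 for Aldh1l2, and for Aldh1l1, with 2 preadipocyte counts, 2.49 on log2(TPM + 1) to 11 without preadipocyte replicate 1. Shmt2 was not past the threshold with edgeR and TMM (0.25), passed as higher with no low-count filter (0.33) and with the replicate block (0.26), ran from 0.17 to 0.40 when single libraries were left out (past the threshold without preadipocyte replicate 1 or adipocyte replicate 3), and was reversed at -0.35 with limma on log2(TPM + 1) and -0.07 with total counts. Mthfd1 lost its call with total counts (0.17) and was reversed at -0.10 with limma on log2(TPM + 1). The number of the 10 enzymes called higher was 5 to 7, and lower 3 to 4. Except for Shmt2, the replicate block changed no call of the 10 enzymes, and of the list counts it moved that of folate enzymes lower by over 1.5 times.

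Of the folate enzyme list, 1 was higher with limma on log2(TPM + 1) and 2 with total counts, while 6 were lower with either of these or with upper-quartile factors, and 5 under the replicate block. Serine use genes higher, and transport genes higher, were 2 each with limma on log2(TPM + 1) or with total counts. Methionine cycle genes lower were 3 under both of these, 2 with upper-quartile factors, and 0 with edgeR and no low-count filter (0 at an unadjusted p under 0.05 as well). Glycine cleavage genes lower were 1 with no low-count filter or DESeq2. Leaving out single libraries gave 1 to 2 lower for folate uptake (1 without adipocyte replicate 2 or 3), 1 to 2 for glycine cleavage (1 without preadipocyte replicate 2 or 3 or adipocyte replicate 1 or 2) and 0 to 1 for the methionine cycle (0 with edgeR without preadipocyte replicate 2 or adipocyte replicate 1 or 2, where 1, 1 and 0 had an unadjusted p under 0.05). The cause of these shifts was not tested. With sums in TMM-scaled CPM in place of TPM, chosen after seeing the data, the cytosolic folate sum was reversed (log2 ratio of means 0.39, against -0.32), while the serine synthesis sum (2.04, against 1.53) and the mitochondrial sum (0.87, against 0.60) kept their direction. Pairing the within-library ratios, also added then, left none past the threshold, which 3 pairs cannot reach. Depth limits the fold change of Aldh1l1, which rests on 2 preadipocyte counts.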
